A study of Mus musculus with 3 samples.

Results

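The immunity-related GTPases (IRGs) are described here by 7 mouse genes, Irgm1, Irgm2, Igtp, Iigp1, Ifi47, Tgtp1 and Tgtp2, which were picked by gene symbol out of 55536 annotated genes. The libraries were made from primary macrophages grown from bone marrow of C57BL/6J mice. The RNA was that of the cytosolic fraction, it was depleted of ribosomal RNA, and 1 µg of it entered each library. All libraries belonged to 1 group. The cells of this group were kept for 12 h in 100 ng/ml Lipid A, the part of bacterial lipopolysaccharide that activates Toll-like receptor 4, then for 12 h without it, and were given 100 ng/ml Lipid A again for 30 min. The group had 3 biological replicates and no untreated counterpart is used here, so the values below are levels at this point and not responses to Lipid A. The age and sex of the mice were not recorded in the labels, and the same donor entry stood beside all replicates, so SDs and p-values measure a spread between libraries that may be technical.

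IRG proteins are large GTPases that interferons induce strongly in mouse cells and that act against bacteria and protozoa living in vacuoles. They are divided by the nucleotide-binding loop called G1, in which the GKS proteins carry the usual lysine and the GMS proteins a methionine in its place. GKS proteins are the effectors that load onto and disrupt the vacuole around a parasite such as Toxoplasma gondii, whereas GMS proteins sit on the cell's own membranes and keep the GKS proteins inactive there. Interferon receptors act on such genes through short DNA motifs, the interferon-stimulated response element and the gamma-activated site. Macrophages given Lipid A make interferon beta, which can act back on the same cells.

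The stretch of coding sequence that divides the 2 classes is shown for 6 members as 24 bases, 5′ to 3′ in the sense of the gene, from the GENCODE M21 transcript with the highest level. Capitals mark the codon that differs between the classes, ATG for methionine or AAG for lysine.
Irgm1: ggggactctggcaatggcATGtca
Irgm2: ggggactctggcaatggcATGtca
Igtp: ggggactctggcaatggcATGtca
Ifi47: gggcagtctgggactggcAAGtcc
Tgtp1: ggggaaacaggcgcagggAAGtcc
Tgtp2: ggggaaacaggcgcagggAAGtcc
The capital codon was number 73 of 393 in Irgm1, 77 of 395 in Irgm2 and 97 of 423 in Igtp, and the 24 bases were identical in these GMS genes. It was number 87 of 420 in Ifi47 and 69 of 415 in both Tgtp1 and Tgtp2. Iigp1 also had the GKS form, at codon 82 of 413, and its sequence is not shown.

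Promoter windows are shown because 5 of the 6 members with an entry in the RefSeq promoter table shared letters of an interferon-stimulated response element just before the start of transcription. The table covered 250 bases before and 50 after each start, and Iigp1 was not matched. The letters searched on both strands were GAAANNGAAA for the response element, TTCNNNGAA for the gamma-activated site and GGGNNNTTCC for NF-kB. The windows are on GRCm38 (mm10), 5′ to 3′ on the strand of the gene, and capitals mark every match to the response element and the gamma-activated site.
Irgm1 (chr11:48871425-48871480, minus strand): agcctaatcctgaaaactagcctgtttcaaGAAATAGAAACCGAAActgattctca
Tgtp1 (chr11:48992304-48992353, minus strand): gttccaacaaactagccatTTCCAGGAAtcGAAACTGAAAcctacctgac
Tgtp2 (chr11:49064263-49064312, minus strand): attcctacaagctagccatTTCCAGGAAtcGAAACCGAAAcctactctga
Igtp (chr11:58199492-58199541, plus strand): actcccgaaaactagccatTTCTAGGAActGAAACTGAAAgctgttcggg
Irgm2 (chr11:58214883-58214932, plus strand): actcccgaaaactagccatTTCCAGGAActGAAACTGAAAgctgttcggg
A gamma-activated site was matched in 4 of 6 members, Tgtp1, Tgtp2, Igtp and Irgm2, where it stood 2 bases before the response element. Irgm1 held no gamma-activated site by these letters and had 2 overlapping matches to the response element, at 30 and 24 bases before the start. The windows of Igtp and Irgm2 were identical at 49 of 50 bases, and those of Tgtp1 and Tgtp2 at 41 of 50. The response element letters were present in 3.44% of 32851 RefSeq promoters of this length, and those of the gamma-activated site in 8.30%. The NF-kB letters were in none of the 6 (0 of 6) and in 5.56% of all promoters. The Ifi47 entry held none of the searched letters, and it lies at the start of Ifi47-202, a transcript with 6.59% of the gene's level, 10452 bases from the start of the main transcript Ifi47-201.

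Summed over annotated genes, the expected counts were 28759407 for replicate 1, the shallowest library, 54709008 for replicate 2 and 49878183 for replicate 3. Levels are given in TPM, a unit that divides each count by transcript length and by the sum over all transcripts so that genes can be compared, as mean ± SD over n = 3 libraries. Detection meant 1 TPM or more in each library, which 9068 nuclear protein-coding genes met, with a median of 8.30 TPM. The macrophage label was checked with 10 marker genes, all of which exceeded 10 TPM in every library and which summed to 4941 to 5198 TPM. No marker of T and NK cells, the cells that make interferon gamma, was detected (0 of 10, with Klrb1c, Prf1 and Gzma at 0 in all libraries), and their sum was 0.03 to 0.12 TPM. B cell (0 of 4), dendritic cell (0 of 5) and stromal markers (0 of 4) were not detected either. Neutrophil markers S100a9, S100a8 and Mmp8 were detected (3 of 6), Ly6g and Retnlg were at 0, and the list summed to 9.16 to 11.6 TPM. In bulk RNA a lower value can mean fewer cells of a type or less RNA per cell, and these cannot be told apart.

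All 7 members were detected, as were 9556 of the 55536 annotated genes. Of the members, 6 stood at or above 10 TPM in every library, and the share of all genes that did so was not computed. Together they amounted to 800.3, 524.0 and 622.7 TPM in replicates 1, 2 and 3, a mean of 649.0 ± 140 TPM, which was 0.222% ± 0.0407 of the TPM of nuclear protein-coding genes. Replicate 1 had the highest sum and replicate 2 the lowest. In the second quantification, made from the reads with an index, the sums were 385.5, 273.9 and 214.0 TPM, with replicate 3 lowest. There the median log2 ratio of second to first over all genes was -1.07, -0.93 and -1.55 in replicates 1, 2 and 3, lowest in replicate 3. The median member stood at 85.1 TPM, against 8.30 TPM for the median detected protein-coding gene. Irgm1 made up 29.7% ± 2.68 of the sum, Tgtp2 22.3% ± 0.867, Iigp1 14.6% ± 1.63 and Ifi47 13.1% ± 0.525. Igtp followed with 10.2% ± 0.368, Irgm2 with 8.27% ± 0.0840 and Tgtp1 with 1.82% ± 0.795.

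**Figure D1:**
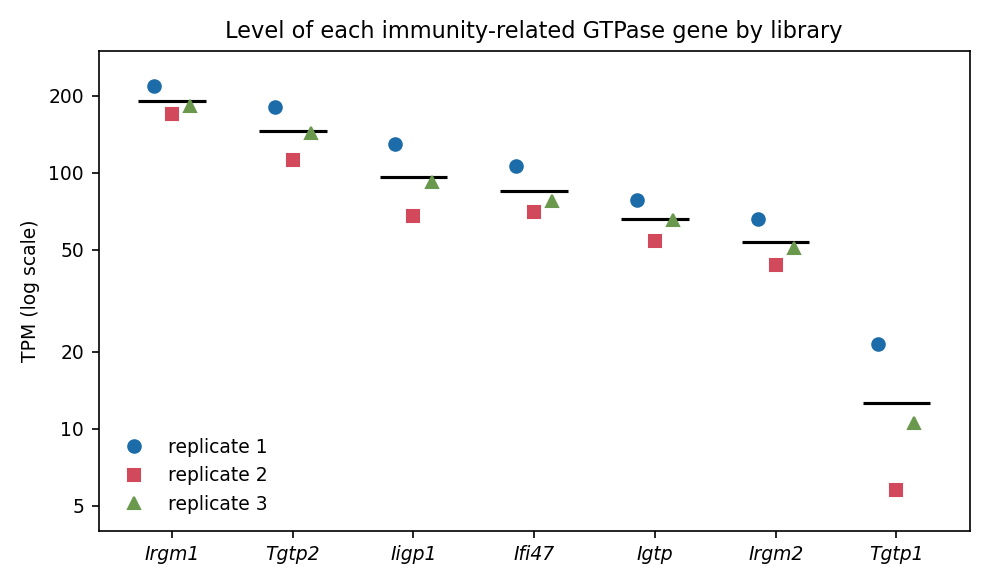
TPM of the 7 GTPase genes on a log axis, with 1 point per library and the mean over 3 libraries as a bar. Irgm1 is highest at 190.2 TPM and Tgtp1 lowest at 12.6 TPM, and replicate 1 lies above the other libraries for every gene.

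Among the GMS regulators Irgm1 was the most abundant. Irgm1 (ENSMUSG00000046879.7, chr11:48861968-48871683, minus strand) encodes a GTPase of the Golgi, lysosomes and mitochondria known from the sensitivity of mice that lack it to intracellular bacteria and from its restraint of interferon responses. Its level was 217.7, 170.4 and 182.5 TPM in replicates 1, 2 and 3, from 19795, 32440 and 29327 expected counts. The mean was 190.2 ± 24.5 TPM, above 97.8% of detected protein-coding genes. Replicate 1 was highest, the other libraries lay close together, and the highest value was 1.28 times the lowest, the narrowest range of the 7 members.

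Igtp (ENSMUSG00000078853.8, chr11:58199556-58207591, plus strand) encodes Irgm3, the GMS protein of the endoplasmic reticulum and lipid droplets. Its level was 78.4, 54.0 and 65.4 TPM, with a mean of 65.9 ± 12.2. Irgm2 (ENSMUSG00000069874.7, chr11:58199618-58222782, plus strand) encodes a regulator found at the Golgi that also restrains the noncanonical inflammasome. It measured 66.2, 43.8 and 51.0 TPM, with a mean of 53.6 ± 11.5. Both genes were highest in replicate 1 and lowest in replicate 2. Irgm1 exceeded Irgm2 in every library, by 1.82 ± 0.12 on the log2(TPM + 1) scale, or 3.53-fold in TPM + 1.

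Igtp and Irgm2 overlap by 7974 bases on the same strand in the annotation, because Irgm2-201 starts inside the first bases of Igtp, 15359 bases from the RefSeq start of Irgm2. That transcript held 2.48% of the Irgm2 level, against 86.2% ± 0.687 for Irgm2-202 and 11.3% for Irgm2-203, both of which start beyond the end of Igtp. Reads over the shared bases were divided by model, and of all 50-base words of Igtp-201, 12.3% also occurred in Irgm2 transcripts. For Irgm2-202 the share found in Igtp was 5.84%. The model's own uncertainty is the posterior SD deposited beside each count. It was 3.46, 3.71 and 4.01 counts for both genes in replicates 1, 2 and 3, or 0.0522% of a count at most.

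Among the GKS effectors the largest value belonged to Tgtp2. Tgtp2 (ENSMUSG00000078921.3, chr11:49057194-49064206, minus strand) and Tgtp1 (ENSMUSG00000078922.9, chr11:48985327-48994172, minus strand) encode forms of Irgb6, an effector that arrives early on the parasite vacuole. Tgtp2 measured 180.7, 111.8 and 143.3 TPM, with a mean of 145.3 ± 34.5. Tgtp1 measured 21.4, 5.76 and 10.5 TPM, with a mean of 12.6 ± 8.01. Tgtp2 exceeded Tgtp1 in every library, by 3.57 ± 0.52 on the log2(TPM + 1) scale, or 11.9-fold in TPM + 1. Tgtp1 had the widest range of the 7 members, 3.72-fold in TPM between replicates 1 and 2.

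The division between Tgtp1 and Tgtp2 is uncertain because they are near-identical copies. Their coding sequences differed at 4 of 1245 bases (99.7% identity), and Tgtp1-201 and Tgtp2-201 at 6 bases and 13 gap positions over 2823. Of the 50-base words of Tgtp1-201, 89.4% also occurred in Tgtp2 transcripts and 6.34% in Gm12185, a relative that overlaps Tgtp1 by 6900 bases on the same strand and measured 1.79 ± 0.880 TPM. The posterior SD deposited beside each count, which is the model's own uncertainty, was 1.92%, 2.52% and 1.99% of the Tgtp1 count and 0.231%, 0.133% and 0.147% of the Tgtp2 count. Summed, the copies reached 202.1, 117.6 and 153.8 TPM, a mean of 157.8 ± 42.4. Tgtp1 held 10.6%, 4.90% and 6.85% of that sum in the first quantification and 10.6%, 5.41% and 6.91% in the second, which was made from the reads with an index. The low share of Tgtp1 and its order over libraries were thus present in both quantifications, neither of which can separate reads that both copies share.

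Iigp1 (ENSMUSG00000054072.12, chr18:60376027-60392634, plus strand) encodes Irga6, the family's best-studied effector at the Toxoplasma vacuole. Its level was 129.3, 67.7 and 92.2 TPM, with a mean of 96.4 ± 31.0. Replicate 1 was 1.91 times replicate 2, the widest range of the 7 members after that of Tgtp1. Ifi47 (ENSMUSG00000078920.3, chr11:49076587-49096974, plus strand) encodes Irgd and measured 106.7, 70.6 and 77.9 TPM, with a mean of 85.1 ± 19.1. For Ifi47, replicates 2 and 3 lay close together below replicate 1.

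In the order of mean TPM the members ran Irgm1, Tgtp2, Iigp1, Ifi47, Igtp, Irgm2 and Tgtp1. This order, taken from the same values, set the pairs below and their direction, which favours a shared sign. A pair was taken to differ beyond its spread when the within-library difference of log2(TPM + 1) pointed the same way in 3 of 3 libraries and its mean exceeded 3 SD. Of the 6 neighbouring pairs 4 met this, namely Tgtp2 over Iigp1 (0.61 ± 0.12), Ifi47 over Igtp (0.36 ± 0.10), Igtp over Irgm2 (0.30 ± 0.06) and Irgm2 over Tgtp1 (2.16 ± 0.57). Irgm1 over Tgtp2 (0.41 ± 0.18) and Iigp1 over Ifi47 (0.15 ± 0.18) did not. Iigp1 stood above Ifi47 in 2 of 3 libraries. In the second quantification the difference of Irgm1 and Tgtp2 was 0.09 ± 0.21, and Tgtp2 was the higher in replicate 1, at 102.4 TPM against 96.2 for Irgm1. A two-sided exact sign-flip test over 3 libraries has 0.25 as its smallest possible p, which it gave for 5 neighbouring pairs (Benjamini-Hochberg adjusted over the 6, 0.30) and p = 0.50 for Iigp1 and Ifi47 (adjusted, 0.50). Over all 21 pairs 18 met the rule, and the remaining pairs were Irgm1 with Tgtp2, Iigp1 with Ifi47 and Iigp1 with Igtp. The share of other gene pairs that would meet the rule was not computed. With a replicate left out, the rule asked for the same sign in the 2 remaining libraries, and the SD rested on 2 values. The difference of Irgm2 and Tgtp1 no longer met the rule without replicate 3 (2.16 ± 0.81), nor that of Ifi47 and Igtp without replicate 2 (0.34 ± 0.14). Without replicate 2, Irgm1 over Tgtp2 (0.31) and Iigp1 over Ifi47 (0.26) met it. Replicate 2 was the only library in which Ifi47 stood above Iigp1.

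The GMS and GKS classes contributed similar totals, 309.8 ± 48.0 TPM from 3 genes and 339.3 ± 92.1 TPM from 4. In replicates 1, 2 and 3 the median log2(TPM + 1) of the GMS genes was 6.31, 5.78 and 6.05, and that of the GKS genes 6.89, 6.13 and 6.42. The GMS median was lower in every library, by a mean difference of -0.43 ± 0.13 that exceeded 3 SD. With class means in place of medians the difference was 0.53 ± 0.25, with GMS higher. With class means and Tgtp1 and Tgtp2 summed as 1 gene it was -0.29 ± 0.14, which did not exceed 3 SD. With medians and these genes summed it was -0.53 ± 0.17, which exceeded 3 SD. Thus with Tgtp1 and Tgtp2 kept separate, no order of the classes held under both summaries. With them summed, the GMS class was lower under both, but beyond 3 SD for medians alone.

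Replicates differed by more than the counting error of their depth for 7 of 7 members, by a chi-square test that the rounded expected counts follow library size as scaled by trimmed mean of M values (TMM), with Benjamini-Hochberg adjustment over all genes. This was common: the same test called 66.2% of 13410 genes whose mean count was 10 or more. The test takes no account of reads divided between copies by model, as were those of Tgtp1 and Tgtp2. The largest adjusted p of the members was that of Igtp, 3.41e-77. The coefficient of variation of scaled counts was 10.4% for Irgm1 against 0.606% from counting alone, 28.9% against 0.736% for Iigp1, and 61.7% against 2.17% for Tgtp1. Irgm2, Igtp, Ifi47 and Tgtp2 lay between 15.3% and 20.8%. Without replicate 1 the call was lost for Irgm1 (adjusted p = 0.786, same chi-square test), so replicates 2 and 3 did not differ detectably for this gene, and 6 of 7 members were called, beside 53.2% of 13753 genes in that setting.

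As a description of replicate variation over all genes, edgeR's gene-wise biological coefficient of variation was 0.134 for Irgm1 and 0.139 for Igtp, beside a common value of 0.157. It was 0.152 for Irgm2 and for Ifi47, 0.166 for Tgtp2 and 0.195 for Iigp1. These are middling values, exceeded by 27.6% to 50.6% of 12738 genes. Tgtp1 stood apart at 0.340 against 0.114 on the trend for its abundance, and 3.61% of genes had a higher value.

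The members moved together over the libraries. In TMM-scaled counts 7 of 7 were ordered with replicate 1 highest, replicate 3 next and replicate 2 lowest, an order that was noticed after the values were seen and that 12.7% of 13410 genes had. Irgm1 reached 698.6, 585.3 and 587.0 CPM (counts scaled to the effective size of a library) in replicates 1, 2 and 3, so that replicates 2 and 3 were nearly equal. Iigp1 measured 579, 328 and 415 and Tgtp1 92.7, 27.0 and 45.2 CPM, with clear gaps between all libraries. Replicate 1 set against the mean of the other libraries gave a log2 difference of 0.25 for Irgm1, 0.34 for Igtp, 0.44 for Irgm2, 0.46 for Tgtp2, 0.47 for Ifi47, 0.64 for Iigp1 and 1.36 for Tgtp1. The median over all genes was -0.02, and 85.3% of genes lay below Irgm1 and 99.6% below Tgtp1. For replicate 2 the members' median was -0.33 and for replicate 3 -0.13, beside 0.03 and -0.02 over all genes. Replicate 1 was also the library of lowest depth and with the largest share of counts outside annotated genes, 0.774% against 0.207% and 0.167%. The part of these in the members' order was not tested.

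**Figure D2:**
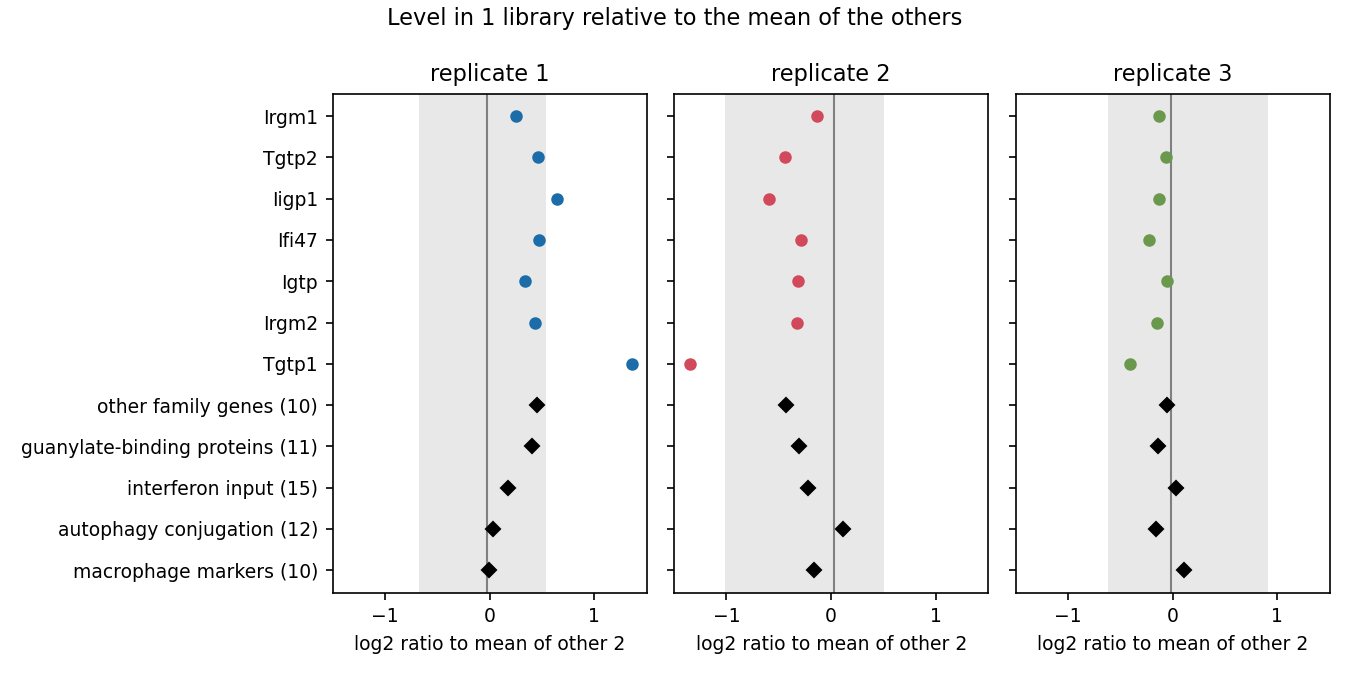
Log2 difference of each library from the mean of the other libraries, in TMM-scaled CPM, for each GTPase gene (circles) and for the median of each gene list (diamonds), with the median of all genes as a line and their 5th to 95th percentile in grey. The 7 genes lie above 0 in replicate 1 (0.25 to 1.36) and below 0 in replicates 2 and 3, while the autophagy genes have medians of 0.03, 0.11 and -0.16.

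The genes with the most similar profile over the 3 libraries were Gbp5, Ms4a4c, Ang, Ncoa1 and Ptafr, by the distance between centred log2 CPM and the median profile of the members, among 10238 genes. Gbp5, a guanylate-binding protein, measured 80.8, 53.2 and 62.3 TPM, and Ms4a4c 546.9, 352.0 and 466.8 TPM. With 3 libraries many genes lie close to any profile, and for example 441 genes were nearer to the median profile than Irgm1 itself, and 9943 nearer than Tgtp1.

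Of the members, 6 lie on chromosome 11 in groups 9.10 Mb apart. Irgm1, Tgtp1, Tgtp2 and Ifi47 fall within 235 kb, and Igtp and Irgm2 within 23.2 kb. Between and beside them stand further genes of the family, and 8 of 11 listed relatives were detected. In the first group Gm5431 reached 72.0, 48.2 and 56.4 TPM (58.9 ± 12.1), 9930111J21Rik2 48.6 ± 11.9 and 9930111J21Rik1 31.8 ± 8.57. Gm12250 lies beside Igtp, encodes the effector Irgb10, which opens bacterial membranes, and is annotated here as a processed pseudogene. It measured 55.6, 39.7 and 54.1 TPM (49.8 ± 8.81), a level close to that of Irgm2. On chromosome 18, Gm4951 reached 37.7 ± 8.35 TPM beside Iigp1, and F830016B08Rik 5.35 ± 1.61. Irgq, a distant relative outside the clusters, was steady at 2.72, 2.77 and 2.64 TPM. Gm4841 (0.897 ± 0.559) was below 1 TPM in some libraries, and Gm12187 and Irgc1, which is expressed in testis, had means of 0.203 and 0.0133 TPM. The library order of the members was present in 8 of 10 of these relatives with enough counts, beside 12.7% of 13410 genes. The relatives' median log2 difference of replicate 1 was 0.45.

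**Figure D3:**
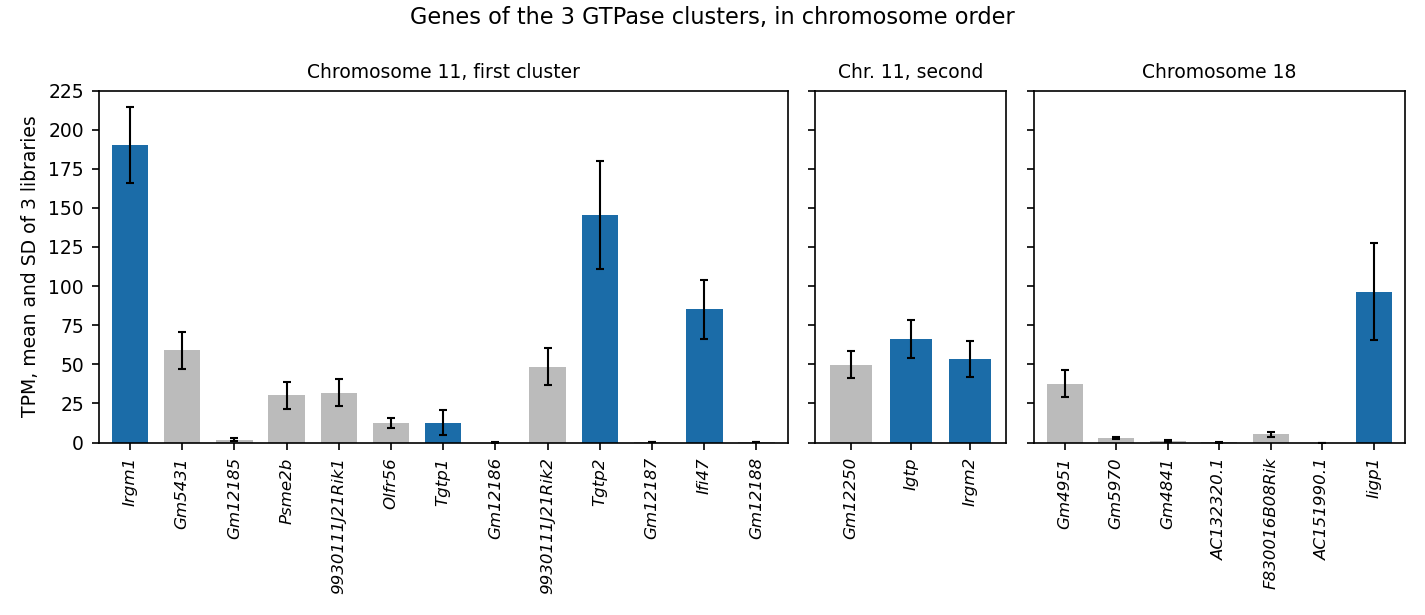
Mean TPM with SD over 3 libraries of the genes in each GTPase cluster, in chromosome order and not to distance, with the 7 members in blue and other annotated genes in grey. High and near-absent genes stand side by side, with Irgm1 (190.2 TPM) and Tgtp2 (145.3 TPM) the tallest in the first.

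Olfr56, an olfactory receptor gene whose annotated span covers Tgtp1 and Tgtp2 on the opposite strand and Ifi47 on the same strand, measured 14.5, 8.86 and 13.7 TPM. Whether counting used strand is not given in the sources used here, so reads of these overlapping genes may be shared. The posterior SD of the Ifi47 count was 0.33, 0 and 0.43 counts in replicates 1, 2 and 3. How many reads were shared with Olfr56 was not tested. The level of Olfr56 was close to that of Tgtp1 and far below those of Tgtp2 and Ifi47.

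Receptor and signalling genes of the interferon pathway were present, while the listed interferon transcripts, Ifnb1 and Ifng, were low. Of 16 listed ligand, receptor and signalling genes 14 were detected, with a median of 31.3 TPM. Stat2, which carries the type I interferon signal to the nucleus, measured 147.3, 95.1 and 137.5 TPM (127 ± 27.7), and Usp18, which damps type I interferon receptors, 93.9 ± 22.4. Ifnb1, interferon beta, measured 2.17, 0.62 and 1.18 TPM (1.32 ± 0.785), highest in replicate 1 and lowest in replicate 2. These values rested on only 54, 33 and 53 expected counts. Ifng, interferon gamma, was at 0, 0.06 and 0.02 TPM. The members' library order was present in 8 of the 15 genes of this list with enough counts, beside 12.7% of 13410 genes.

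Guanylate-binding proteins, interferon-induced GTPases that act on the same vacuoles, were detected in 9 of 11 cases, with a median of 35.1 TPM. Gbp2 measured 282.4, 196.2 and 277.9 TPM (252 ± 48.5), above Irgm1, and Gbp6 reached 96.3 ± 18.8 and Gbp3 83.2 ± 13.2. The lowest were Gbp10 at 1.72 ± 0.882 and Gbp2b at 0.847 ± 0.550. Their median log2 difference of replicate 1 was 0.41, against 0.46 for the members. The members' library order was found in 9 of 11, beside 12.7% of 13410 genes.

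The listed autophagy genes, which include conjugation genes whose products are needed to place IRG proteins correctly, were detected in 12 of 12 cases. Their median was 16.1 TPM. Sqstm1 and Becn1 are on this list but are not conjugation genes. Sqstm1, an autophagy receptor, reached 303.9, 290.0 and 193.0 TPM (262 ± 60.4), Gabarap 245.7, 256.5 and 248.6 (250.3 ± 5.60) and Becn1 36.1 ± 1.88. Atg16l1 (5.98 ± 0.624) and Map1lc3a (4.20 ± 0.972) were lowest. None had the members' library order (0 of 12), and 2 of 10 macrophage markers had it, beside 12.7% of 13410 genes. On the log2(TPM + 1) scale the median was 6.38 ± 0.33 for the members, 5.19 ± 0.28 for guanylate-binding proteins, 5.01 ± 0.08 for the interferon list, 4.09 ± 0.11 for the autophagy genes, 2.63 ± 0.39 for the other family genes and 3.21 ± 0.03 for all detected protein-coding genes.

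**Figure D4:**
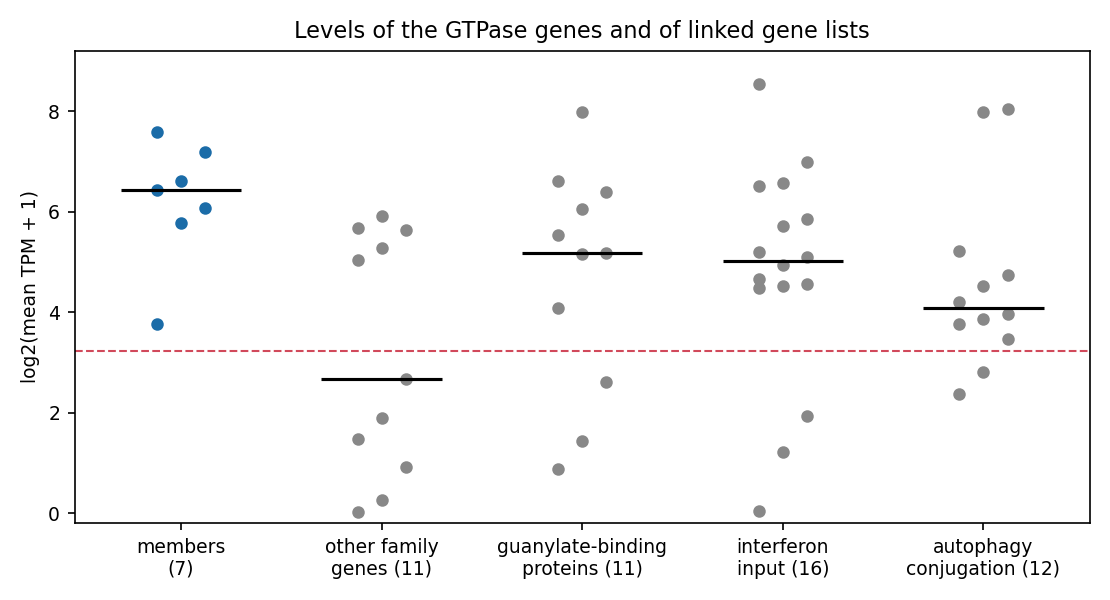
Log2(mean TPM + 1) over 3 libraries of each GTPase gene and of each gene in the 4 lists set beside them, with the median of each list as a bar and that of all detected protein-coding genes as a dashed line. The bar of the members lies highest, Tgtp1 lies apart from the other members, and the other family genes are spread from near 0 to just above the level of Irgm2.

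Most of each gene's level came from a single annotated transcript in every library. Igtp-201 held 90.1% ± 0.852 of Igtp, Iigp1-202 87.9% ± 0.491 of Iigp1, Ifi47-201 92.7% ± 1.05 of Ifi47, Tgtp1-201 98.6% ± 1.42 of Tgtp1 and Tgtp2-201 97.6% ± 0.0619 of Tgtp2. Irgm1 was the most divided, with 74.6% ± 1.26 in Irgm1-202 and 25.3% in Irgm1-201, whose annotated start lies 46 bases downstream. The second quantification gave other shares for several genes. Ifi47-201 held 74.6% there and Ifi47-202 21.3%, and Tgtp2-201 held 77.9% beside 22.1% for Tgtp2-202, a processed transcript of 370 bases. Tgtp1-201 held 73.9% there and Tgtp1-203 23.0%, and Iigp1-202 79.3% beside 17.3% for Iigp1-201. For Irgm1, Irgm2 and Igtp the leading transcript differed little, at 68.4%, 83.7% and 92.4%.

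At the level of genes, the second quantification was compared after removing the median difference of 7816 genes in each library. The log2 ratio of second to first was -0.10 for Irgm1, -0.11 for Irgm2, -0.08 for Igtp, -0.06 for Ifi47 and 0.01 for Iigp1. It was 0.27 ± 0.05 for Tgtp1, 0.22 ± 0.03 for Tgtp2 and 0.22 for their sum. All members lay within the 5th to 95th percentile of all genes, -0.17 to 0.39. Tgtp1 and Tgtp2 had the largest shifts of the members, and their sum shifted by about as much as Tgtp2, which holds most of it.

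**Figure D5:**
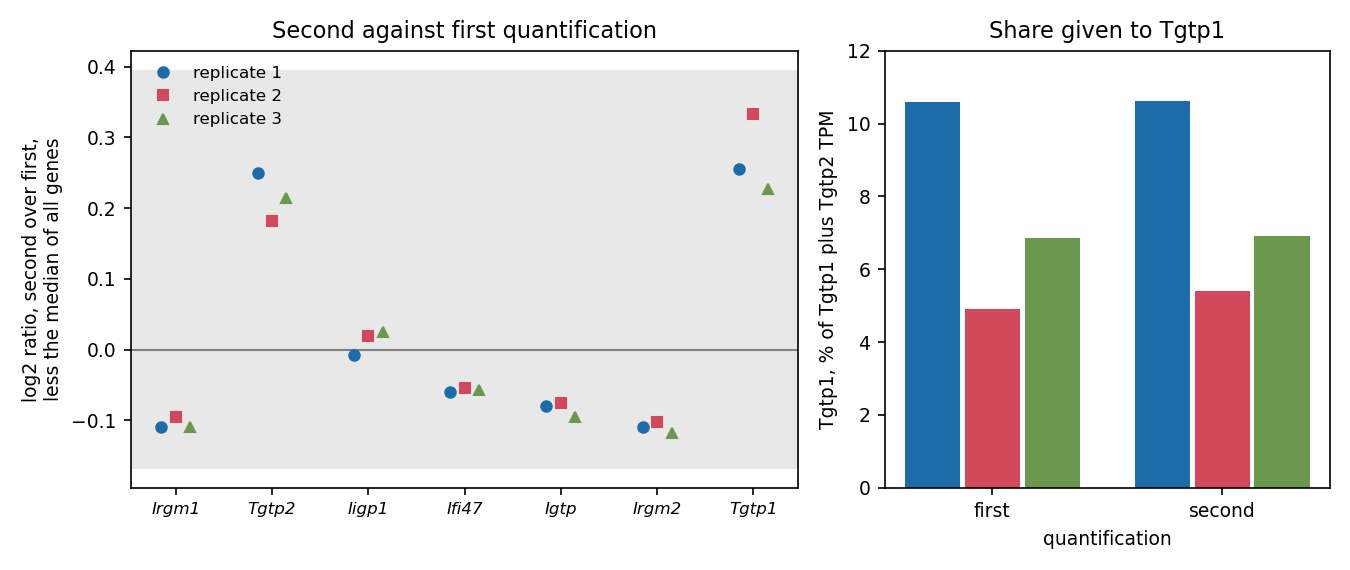
Log2 ratio of TPM in the second over the first quantification for each GTPase gene and library, after removing the median of all genes in that library (left, 5th to 95th percentile of genes in grey), and Tgtp1 as a share of Tgtp1 plus Tgtp2 TPM (right, 1 bar per library in the same colours). Tgtp1 and Tgtp2 have means of 0.27 and 0.22 and the other genes of -0.11 to 0.01, and the Tgtp1 share runs from 4.90% to 10.6% in the first quantification and from 5.41% to 10.6% in the second.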

How the data were processed

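Total RNA-seq tables of 3 libraries of 1 group were used as deposited, with replicate numbers from the labels. Per the file headers, the authors gave for each gene and transcript an expected count and TPM over all entries, and for each gene the posterior SD of the count (in counts). A second deposited table holds an estimated count and TPM per transcript. The authors used mm10 and GENCODE M21 and made the first tables from transcriptome alignments and the second from reads and an index, per the text deposited beside the libraries. Not given in the sources used here were programs, versions and strand setting. TPM is relative to all transcripts, so abundant short RNAs lower every other value. The 26345 entries that name no annotated gene entered neither library sizes nor tests.

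Members, lists, markers and tests were chosen with earlier results of these data known. Named genes are the members, up to 3 highest and 2 lowest of each list, any other family gene, and the 5 nearest profiles among genes averaging 100 counts or more. Olfr56 and the markers at 0 or detected were named after their values were seen. Not all genes that met this rule are reported here. After rounding, expected counts were TMM-scaled in edgeR 4.0.16 (R 4.3.3), and the chi-square test used genes averaging 10 counts or more and an adjusted p under 0.05. Dispersions came from edgeR with an intercept alone after filterByExpr. Log2 differences of libraries used a prior count of 0.5, and levels a pseudocount of 1, which understates differences of low genes. Depth, 28759407 to 54709008 counts, sets the counting error. Other steps used Python 3.11.15, pandas 2.3.3, scipy 1.17.1 and Biopython 1.88, and the dispersion and chi-square steps were tested on simulated data. RefSeq proteins were planned for the class of each GTPase and its identity to others. Coding sequences of GENCODE M21 transcripts were used in their place, aligned globally. Alternatives were leaving out each replicate, DESeq2 1.42.0 size factors, a minimum mean count of 100 or none, pseudocount 0.1, the second quantification, TPM rescaled to nuclear protein-coding genes, class means, and Tgtp1 and Tgtp2 summed.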

Additional observations from a re-analysis of the deposited data

How the results depend on the processing

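The summed level of the members was 649.0 TPM and ran from 573.4 to 711.5 with a replicate left out. It was 291 ± 87.1 TPM in the second quantification, where replicate 3 and not replicate 2 was lowest, and 2222 ± 407 with TPM rescaled to nuclear protein-coding genes, both of which change the denominator of every gene. The median difference of GMS and GKS genes (-0.43) ran from -0.47 to -0.36 with a replicate left out, and without replicate 3 (-0.46 ± 0.16) it no longer exceeded 3 SD. It was -0.44 with pseudocount 0.1, -0.48 in the second quantification and -0.53 with Tgtp1 and Tgtp2 summed. With class means it reversed to 0.53 ± 0.25, and with class means and the Tgtp genes summed, an alternative chosen after seeing the data, it was -0.29 ± 0.14, not beyond 3 SD. The number of neighbouring pairs beyond their spread ran from 3 to 5 of 6 with a replicate left out, was 3 of 5 with the Tgtp genes summed, and 4 of 6 otherwise. The count beyond counting noise was 7 of 7 with DESeq2 size factors (65.6% of all genes called), no count minimum (41.1%), a minimum of 100 (74.3%) and the second quantification (72.8%). It was 7 of 7 without replicate 2 (44.3%) or replicate 3 (44.2%), 6 of 6 with the Tgtp genes summed (66.2%), and 6 of 7 without replicate 1 (53.2%), where Ifi47 stood at an adjusted p of 0.0488 (chi-square test). The mean of Tgtp1 was 8.15 TPM without replicate 1 and 15.97 without replicate 2. No paired analysis was possible because the libraries form 1 group. The lowest count of a member in any library was 1496.75, for Tgtp1 in replicate 2, where counting error is largest.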

Other observations

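Wide ranges over libraries were found in several genes, which were picked after their values were seen. Tgtp1 was 3.72-fold higher in replicate 1 than in replicate 2, Ifnb1 3.50-fold, Gm4841 3.45-fold, Gbp2b 3.42-fold, Gbp10 2.92-fold and Gm12185 2.74-fold. Of these, Tgtp1 had a mean of 12.6 TPM and the others lay between 0.847 and 1.79 TPM. Ifnb1 rested on 54, 33 and 53 expected counts in replicates 1, 2 and 3, and Gm4841 and Gbp2b on 111 to 190. Tgtp1 had 2627, 1497 and 2260. The more abundant Gbp2 (1.44-fold), Gm5431 (1.49-fold) and Igtp (1.45-fold) had narrower ranges in the same direction. The values of Irgq, at a mean of 2.71 TPM, differed by 1.05-fold at most.

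Psme2b, also picked after its values were seen, is a copy of a proteasome activator gene that interferon gamma induces. Its annotated span lies inside that of Gm12185 and overlaps one end of 9930111J21Rik1, both on the same strand. How reads over these shared bases were divided was not tested. Psme2b measured 37.5, 20.8 and 32.0 TPM in replicates 1, 2 and 3. It is no GTPase, and it had the same order over libraries as Gm12185 and 9930111J21Rik1.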
